A study of Mus musculus with 41 samples.

Results

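PU.1 and the histone mark H3K4me2 were profiled by chromatin immunoprecipitation (ChIP) in microglia taken directly from the brain (ex vivo). All intervals of the 2 ex vivo peak lists were taken, 79601 PU.1 peaks and 43834 H3K4me2 regions, which make 123435 of the 382955 intervals in the 6 peak lists of the series. They were set against each other, against the genes they lie in or near, and against the RNA level of those genes in 5 ex vivo RNA libraries. All animals were C57Bl6 mice, and no age or sex was given in the sources used here. The microglia were live CD11b+ CD45Low sorted cells, 500000 to 2000000 for each ChIP library, fixed with 1% paraformaldehyde for 10 min, and 100000 to 150000 for each RNA library. PU.1 and H3K4me2 had 2 libraries each, which the authors pooled before calling peaks against a pooled input, so neither list has a replicate and shares of peaks are given with no error between samples. RNA of the ex vivo cells was compared with that of whole brain lysate (n = 4) and of sorted microglia cultured for 7 d in DMEM/F12 medium with 5% FBS, with IL-34 added each day and no change of medium (n = 5). RNA libraries of these groups held 11.6 to 28.02 M counts (M, 1e6). The test of 7 d against ex vivo was fitted together with libraries of shorter cultures and of 7 d culture labelled TGFβ. The levels of these further libraries are not reported here. The labels do not say whether the RNA libraries of a group came from separate mice, so a p-value here stands against the spread between libraries, which may be technical.

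PU.1, encoded by Spi1, is a transcription factor of the ETS family that macrophages, microglia and B cells need for their development. It binds a purine-rich sequence around a GGAA core and, in macrophages, does so at promoters and at distal enhancers, where it opens chromatin together with other lineage factors. H3K4me2, dimethylation of lysine 4 of histone H3, marks promoters and enhancers, whether active or poised, while acetylation of lysine 27 (H3K27ac) marks the active ones.

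The sequences under the PU.1 peaks at gene starts are shown first, because they can be read beside the known binding sequence of PU.1. Of 221 genes of the gene lists described below that had a promoter sequence in the reference used here, 16 held the PU.1-type octamer GAGGAAGT, on either strand, between 250 bases before and 50 after the start. In 8 of these a PU.1 peak overlapped that window (Fcgr4, Itgav, Ctss, C1qc, Tlr1, Pf4, Tlr9 and Psmc1), with the octamer 4.5 to 28.5 bp from the centre of the peak. Below are 5 of them, stretches of 61 bases around the peak, and then 3 stretches of genes whose PU.1 peak at the start holds the ETS core without the octamer. All are written 5′ to 3′ on the strand of the gene from RefSeq GRCm38.p6. Capitals mark the octamer or the copy of the core nearest the peak centre (ACTTCCTC and TTCC are the same sequences read on the other strand). Further copies of the core, as in the stretches of P2ry12 and Tnf, are left in lower case.
Fcgr4, chr1:171018880-171018940, + strand: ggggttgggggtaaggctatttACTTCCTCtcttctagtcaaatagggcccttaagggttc
Ctss, chr3:95526745-95526805, + strand: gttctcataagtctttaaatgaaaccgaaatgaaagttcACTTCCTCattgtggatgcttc
Tlr1, chr5:64933567-64933627, - strand: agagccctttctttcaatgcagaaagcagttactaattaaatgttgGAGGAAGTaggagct
Tlr9, chr9:106222558-106222618, + strand: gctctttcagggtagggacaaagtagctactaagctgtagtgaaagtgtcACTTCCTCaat
Pf4, chr5:90772395-90772455, + strand: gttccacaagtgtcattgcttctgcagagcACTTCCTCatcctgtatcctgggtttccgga
P2ry12, chr3:59262981-59263041, - strand: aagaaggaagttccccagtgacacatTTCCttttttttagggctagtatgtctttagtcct
Il1b, chr2:129371161-129371221, - strand: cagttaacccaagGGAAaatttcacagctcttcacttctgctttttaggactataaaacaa
Tnf, chr17:35202056-35202116, - strand: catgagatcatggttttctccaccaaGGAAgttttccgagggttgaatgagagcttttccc

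The octamer of Fcgr4, which encodes an activating receptor for antibodies, begins 24 bases before the annotated start of the gene. That of Ctss, the lysosomal protease cathepsin S, begins 2 bases before its start, and those of Tlr1 and Tlr9, receptors for microbial lipopeptide and DNA, begin 23 bases before and 10 bases after theirs. The promoter of C1qc, a subunit of the complement component C1q, is given whole from 250 bases before the start, since its octamer lies further out, beside a PU.1 peak centred 185 bases before the start.
C1qc, chr4:136892915-136893164, - strand: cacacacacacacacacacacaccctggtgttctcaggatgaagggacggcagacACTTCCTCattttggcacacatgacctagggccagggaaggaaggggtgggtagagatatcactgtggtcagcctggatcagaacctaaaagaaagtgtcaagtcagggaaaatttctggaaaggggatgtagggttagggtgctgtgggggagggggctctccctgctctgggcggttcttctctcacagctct

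The other 8 genes held the octamer in the same window with no PU.1 peak there. For 3 of them, the endoderm factor Foxa2, the neutrophil gene S100a8 and the coagulation factor gene F13a1, an H3K4me2 region overlapped the window. For 5, the neutrophil enzymes Elane and Mpo and the surface protein genes Ly6c1, Ly6c2 and Ly6g, neither list did. The stretches of 3 of these are shown because their octamer is the same string as in the bound promoters.
Elane, chr10:79886201-79886261, + strand: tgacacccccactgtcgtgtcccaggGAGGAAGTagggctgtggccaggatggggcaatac
Mpo, chr11:87793534-87793594, + strand: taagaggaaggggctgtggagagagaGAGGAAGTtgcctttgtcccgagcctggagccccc
Ly6g, chr15:75155204-75155264, + strand: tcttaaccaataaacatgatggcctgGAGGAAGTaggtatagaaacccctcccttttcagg

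RNA of the bound examples spanned a wide range on the TPM scale (transcripts scaled to 1e6 and corrected for length, the authors' values). In such bulk libraries fewer cells of a type and less RNA per cell cannot be told apart. Ctss was at 3949, 4445, 4953, 2882 and 3051 TPM in ex vivo libraries 1 to 5, Tlr9 at 156, 176, 159, 248 and 203 TPM, and Fcgr4 at 15.5, 13.5, 19.8, 10.6 and 11.4 TPM. The libraries of these 3 genes did not overlap between genes. Pf4, a chemokine gene that macrophages at the brain's borders express, was at 1.16, 2.56, 7.68, 0 and 0.182 TPM, with library 3 the highest. Of the unbound examples, Elane was at 0.225 ± 0.279 TPM, Mpo at 0.0900 ± 0.133 TPM and Ly6g at 0.673 ± 0.824 TPM (SD, n = 5), with at least 2 libraries of each listed at 0.

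PU.1 peaks and H3K4me2 regions overlapped in part. Of the 79601 PU.1 peaks, 36429 (45.8%; 95% Wilson interval 45.4 to 46.1%, counting error only) overlapped an H3K4me2 region by at least 1 bp, and 43172 (54.2%) did not. Of the 43834 H3K4me2 regions, 27064 (61.7%; 61.3 to 62.2%) held a PU.1 peak: 19488 held exactly 1, 6092 held 2, 1248 held 3 and 236 held 4 or more. The PU.1 peaks outside H3K4me2 lay a median of 8.33 kb from the nearest region (quartiles 2.83 and 21.8 kb), so most were not at the margin of one, and 8.73% of them lay within 500 bp. The lists differ in kind as well: every PU.1 peak is 201 bp wide, 16.0 Mb in all, while H3K4me2 regions run from 501 to 26022 bp (median 1213 bp) and cover 69.2 Mb, or 3.46% of the genome size the peak caller used. PU.1 was called from 30.7 M tags at a threshold of 15 tags a peak and H3K4me2 from 55.6 M at 28, so the depth sets how many weak sites either list holds.

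The share of H3K4me2 regions with PU.1 rose with the width of the region. A PU.1 peak lay in 30.2% of the 6999 regions of 501 bp, the smallest width the caller gives, in 67.6% of the 15032 regions of 1 to 2 kb and in 192 of the 193 regions of 8 kb or wider. Per kb of region the number was 0.622 PU.1 peaks in the smallest regions and 0.665 in the wider ones of under 1 kb. It was 0.581 in those of 1 to 2 kb and 0.306 in those of 8 kb or wider. A peak that overlapped a region by 1 bp or more counted whole, while only the region's own width was divided by. This raises the number per kb most in narrow regions, so how those under 1 kb compare with wider ones is not decided by it. Wide regions held more PU.1 peaks each (a mean of 3.31 at 8 kb or wider, 8 at most) but by this count fewer per kb. Regions with PU.1 had a median width of 1563 bp and made up 74.2% of all H3K4me2-covered bases, against a median of 820 bp for those without. Within regions of 1 to 2 kb PU.1 centres were gathered near the middle, with 34.2% of them in the innermost of 5 equal steps from edge to centre and 7.92% in the outermost, while in regions of 4 kb or wider these shares were 18.3% and 14.9%.

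**Figure D1:**
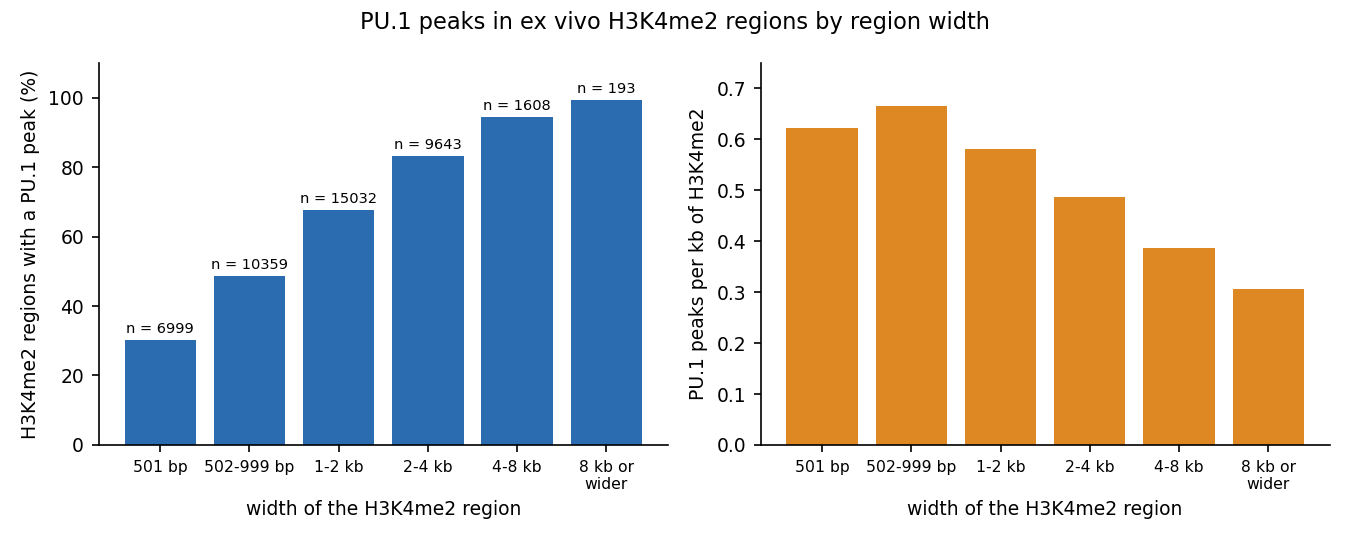
Share of ex vivo H3K4me2 regions that hold a PU.1 peak (left, percent, n regions above each bar) and PU.1 peaks per kb of region (right) by region width; 1 pooled list each, so no error bars. The share rises from 30.2% to 99.5% over the 6 width classes, while the number per kb is 0.622 in the narrowest, highest at 0.665 in the next class and lowest at 0.306 in the widest. Peaks that overlap a region by 1 bp or more count whole, which raises the number per kb most in narrow regions.

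Some of the widest H3K4me2 regions lay at Cx3cr1 and the C1q genes. The widest, 26022 bp at chr4:120990948-121016969 (mm10) at Smap2, a regulator of vesicle traffic, held 8 PU.1 peaks, and the next, 25743 bp, lay at Pmepa1, an inhibitor of TGFβ signalling, with 6. A region of 19189 bp at chr9:120054124-120073312 overlapped part of Cx3cr1 (chr9:120048683-120068296), the fractalkine receptor that marks microglia, with 6 PU.1 peaks, and one of 17684 bp at chr4:136881840-136899523 lay at C1qa, C1qb and C1qc with 3. Smap2 was at 561, 578, 516, 553 and 551 TPM and Cx3cr1 at 4228, 4895, 4009, 5357 and 4673 TPM in ex vivo libraries 1 to 5. Both were close among libraries, and the Cx3cr1 libraries all lay above those of Smap2.

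Whether a PU.1 peak carried H3K4me2 differed by its place. Within 1 kb of either end of a gene (gene bodies in the annotation used here carry no strand), 11388 of 13731 PU.1 peaks (82.9%) overlapped H3K4me2, and away from gene ends 25041 of 65870 (38.0%) did. Seen from the marked side, 31.3% of PU.1 peaks with H3K4me2 and 5.43% of those without lay near a gene end. H3K4me2 regions near gene ends held PU.1 in 68.4% of cases and were wider (median 2089 bp) than those away from ends (58.5%; 941 bp). The PU.1 peaks without H3K4me2 were therefore mostly distal: 40829 of 43172 lay away from gene ends.

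PU.1 peaks with H3K4me2 also overlapped the other open and active chromatin lists more often. Ex vivo ATAC peaks, which mark accessible DNA, overlapped 74.7% of PU.1 peaks with H3K4me2 and 47.6% of those without, and ex vivo H3K27ac regions overlapped 69.3% and 17.95%. Neither ATAC nor H3K27ac was found at 8.94% of PU.1 peaks with H3K4me2 and at 47.8% of those without. Turned around, ATAC peaks lay in 90.5% of H3K4me2 regions with PU.1 and in 43.8% of those without, and H3K27ac overlapped 66.6% and 27.8%. Away from gene ends H3K27ac overlapped 56.2% of H3K4me2 regions with PU.1 and 23.9% of those without. Regions with PU.1 were also wider (median 1563 against 820 bp), and the part of width in these shares was not tested. Of the 2 ATAC libraries after 7 d of culture, 1 was of 8 d per its label. Their peaks overlapped 70.4% and 46.8% of ex vivo PU.1 peaks with and without H3K4me2. These totals were close to the ex vivo values, but the 7 d list is larger (112977 against 90674 peaks). ATAC peaks of both times overlapped 63.9% and 37.7%, so the sites were in part different. H3K27ac regions after 7 d, called from 27.6 M tags against 45.6 M ex vivo, overlapped 55.5% and 13.3%.

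At gene starts PU.1 formed a narrow peak and H3K4me2 a broad plateau. Starts with strand were known for 17601 genes. Among the 6181 of these with a mean of at least 10 TPM ex vivo, PU.1 centres were densest in the 100 bp just before the start (25.3 per 100 starts), against 0.663 per 100 starts at 3 kb upstream. In the same bin there were 14.3 per 100 starts at genes of 0.1 to under 10 TPM and 1.08 at genes under 0.1 TPM. H3K4me2 covered the start of 88.6% of genes of at least 10 TPM and reached its highest share, 93.7%, between 700 and 800 bp downstream. At genes under 0.1 TPM its share was 18.4% at most.

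**Figure D2:**
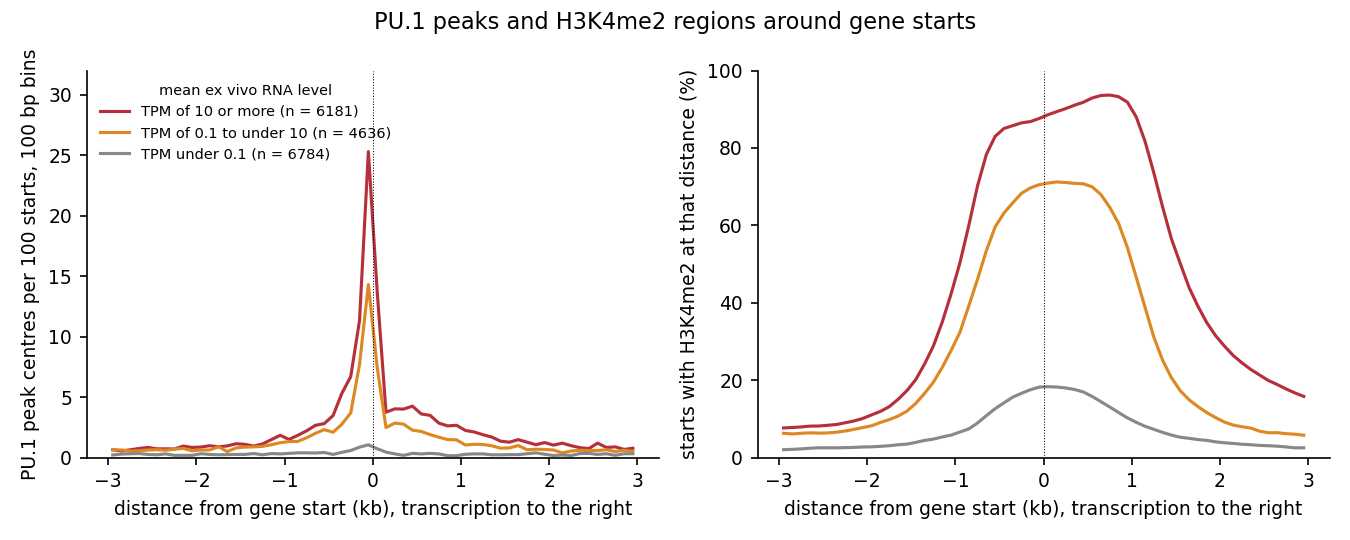
PU.1 peak centres per 100 starts in 100 bp bins (left) and the percent of starts with H3K4me2 (right), by distance from the gene start in kb, for genes of 3 ex vivo RNA levels. PU.1 is highest in the bin just before the start in all 3 groups, at 25.3, 14.3 and 1.08 per 100 starts, and H3K4me2 forms a plateau about the start that reaches 93.7% at the genes of highest level.

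Genes with both lists at the start had the highest RNA levels. The 7949 genes with PU.1 and H3K4me2 within 1 kb of the start had a median of 17.3 TPM ex vivo, and the medians of libraries 1 to 5 were 16.4, 17.6, 17.5, 16.4 and 16.3 TPM. The 3393 with H3K4me2 alone had a median of 0.619 TPM, with library medians of 0.418, 0.498, 0.870, 0.552 and 0.453 TPM. These sets of 5 library medians lie far apart, and library 3 is the highest of the second set. The 298 starts with PU.1 alone (0.0636 TPM) and the 5961 with neither (0 TPM) lay below both. At 1 CPM or more (counts scaled to 1e6 per library), 87.2% of genes with both at the start were detected, 48.9% of those with H3K4me2 alone, 27.9% of those with PU.1 alone and 6.68% of those with neither.

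PU.1 away from the start went with RNA level too. For genes whose start carried H3K4me2 alone the median TPM was 0.201 with no PU.1 peak away from the gene's ends, 0.296 with 1 to 2, 0.874 with 3 to 5 and 11.7 with 6 or more. Where the start carried both, it went from 13.7 with none to 29.1 TPM with 6 or more. Where the start carried neither, the median stayed at or below 0.0340 TPM in every class. Irf8, a transcription factor that microglia need, is a gene of the first kind: no PU.1 peak lay within 1 kb of its start, 21 were assigned to it, and it stood at 407, 345, 391, 456 and 380 TPM in the 5 libraries. Tgfbr1, a TGFβ receptor subunit, had 17 PU.1 peaks with H3K4me2 alone at its start, and 793, 1396, 877, 866 and 760 TPM, with library 2 above the other 4.

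The PU.1-type octamer GAGGAAGT, read on either strand, lay in 668 of the 21217 promoter windows of 300 bases in the reference used here (3.15%). It was in 5.75% of the 6576 windows that a PU.1 peak overlapped and in 1.98% of the others. By class of start it was found in 4.06% of windows with both, 7.57% with PU.1 alone, 0.822% with H3K4me2 alone and 3.16% with neither, so starts with H3K4me2 alone held it least often. Windows with PU.1 are rich in CpG, where the octamer is rarer: among windows of 0 to 4 CpG it was in 20.3% of those with PU.1 and in 3.51% of those without. Read from the sequence, 56.6% of windows with the octamer held a PU.1 peak, against 31.0% of all windows. Among windows that H3K4me2 overlapped the share was 86.2% (48.9% for all such windows), and among those it did not it was 15.1% (4.49%), so a start with the octamer and without H3K4me2 mostly had no PU.1 peak.

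The octamer also lay at the centre of the peaks. In windows with a PU.1 peak the 388 matches lay a median of 9.5 bp from the nearest peak centre, and 70.9% were within 25 bp. The other strings searched, also on either strand, lay further off: the composite of ETS and IRF sites (GGAA and GAAA with any 2 bases between) at 51.5 bp, the AP-1 type TGANTCA at 100 bp, the MEF2 type (CTA and TAG with any 4 bases between) at 79.5 bp, the C/EBP type TTGCNNAA at 104.5 bp and the GC box GGGCGG at 93.5 bp. GGGCGG lay in 46.6% of all windows, TTGCNNAA in 10.1%, TGANTCA in 7.27%, the MEF2 type in 3.51% and the composite in 2.56%. Any of these can overlap another, and the composite shares its first 4 bases with the ETS core. The core alone, GGAA on either strand, was found within the central 51 bases of 78.1% of 4798 PU.1 peaks that lie in promoter windows, in 44.2% of stretches of 51 bases 100 bases away and in 39.8% of the middle stretches of windows without a peak. A match is a string in the reference and not a measured contact.

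**Figure D3:**
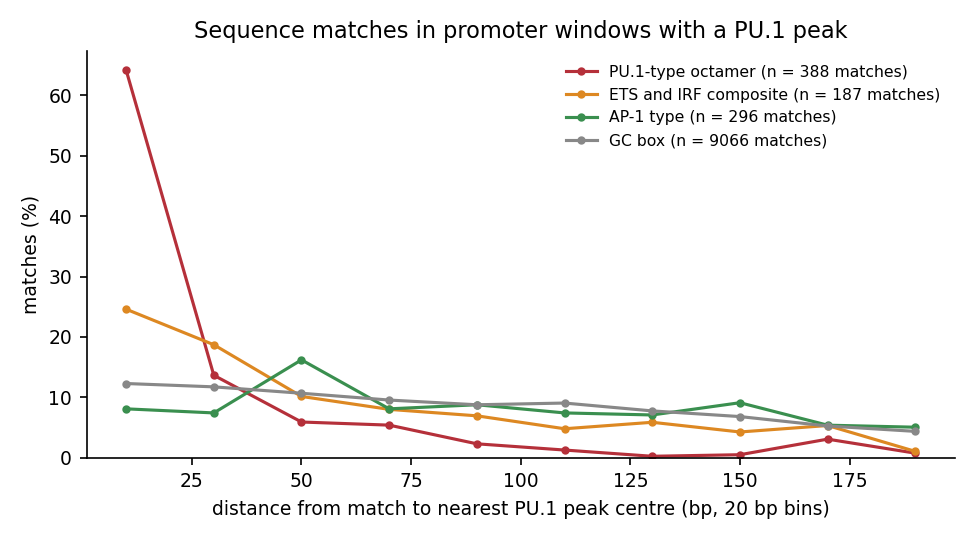
Distance in bp from each sequence match to the nearest PU.1 peak centre, in bins of 20 bp, as percent of the matches of that string in promoter windows with a PU.1 peak. Matches of the PU.1-type octamer (n = 388) gather at the centre, 70.9% of them within 25 bp, against 15.4% of GC box matches (n = 9066).

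Each peak was then given to the gene body it lay in, or to the nearest one within 100 kb. So counted, 94.8% of PU.1 peaks and 96.5% of H3K4me2 regions belonged to a gene. Of 24408 measured genes, 15436 (63.2%) had both, 1495 PU.1 alone, 1902 H3K4me2 alone and 5575 neither. Genes with both had a median of 8.82 TPM (8.26, 9.08, 9.01, 8.33 and 7.95 TPM in libraries 1 to 5), and those with H3K4me2 alone 0.154 TPM. The medians of genes with PU.1 alone and of genes with neither were 0 in every library, and 7.36% and 4.72% of them were detected at 1 CPM or more, against 69.1% of genes with both and 32.8% of those with H3K4me2 alone.

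The number of PU.1 peaks per gene and the RNA level rose together. The median TPM was 0 for the 7477 genes with no PU.1 peak, 0.644 with 1 peak, 3.95 with 2, 8.10 with 3 to 5, 14.1 with 6 to 10, 23.8 with 11 to 20 and 44.0 for the 374 genes with 21 or more, whose library medians were 40.0, 45.8, 39.7, 47.9 and 46.7 TPM. Spearman's rho across all 24408 genes was 0.54 for PU.1 peaks and 0.53 for H3K4me2 regions, and across the 11657 detected genes 0.23 and 0.15. Genes are not independent replicates, the 2 numbers go together (rho 0.79), and both share the length of the gene (rho 0.55 of length with PU.1 peaks): the median length was 3.94 kb with no PU.1 peak and 200.2 kb with 21 or more. Within the 8136 shortest genes, up to 7.14 kb, the median was 0 TPM with none, 1.31 with 1 to 2, 2.29 with 3 to 5 and 2.35 with 6 or more. Within genes of 7.14 to 28.2 kb it was 0, 4.60, 12.6 and 20.4 TPM, and within longer ones 0.00700, 0.171, 6.11 and 20.1 TPM. The width of the widest H3K4me2 region went with RNA level more closely than either number among detected genes (rho 0.42). Over all genes, detected or not, the median was 0.661 TPM at 1 to 2 kb, 13.7 at 2 to 4 kb, 39.9 at 4 to 8 kb and 164.6 TPM for the 247 genes at 8 kb or wider.

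**Figure D4:**
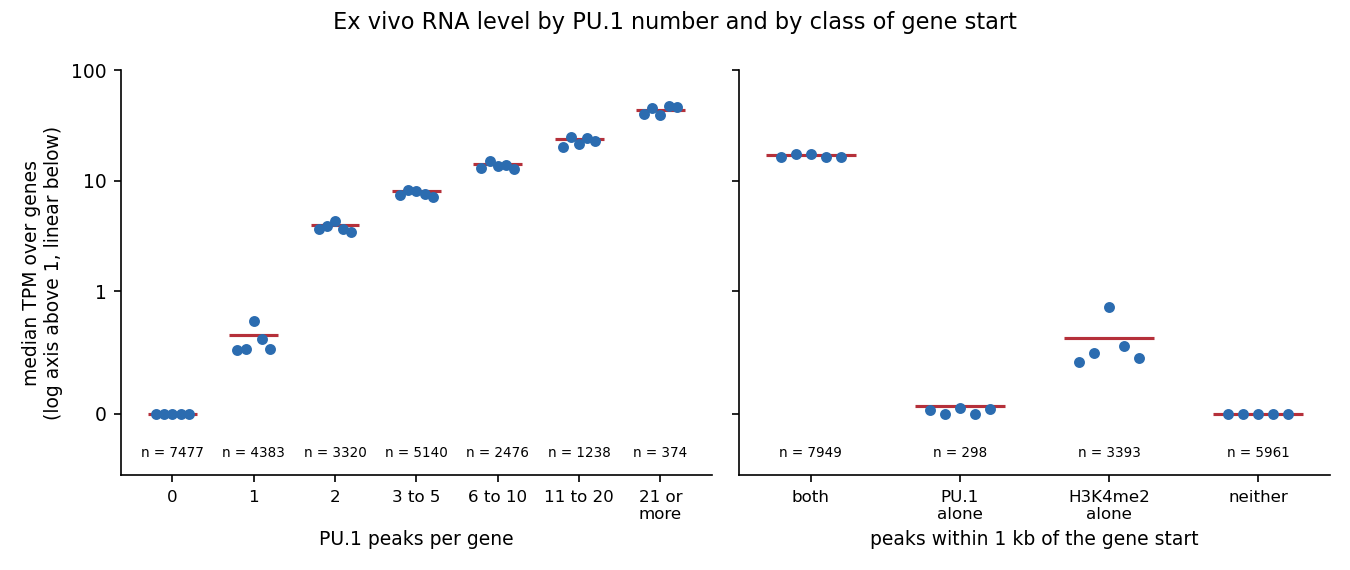
Median TPM over genes by number of PU.1 peaks per gene (left) and by the lists found within 1 kb of the start (right); points are ex vivo libraries 1 to 5, bars the median of the genes' means over the 5 libraries, and the axis is logarithmic above 1 and linear below. The median goes from 0 with no PU.1 peak to 44.0 TPM with 21 or more, and the libraries of the upper 4 classes on the left do not overlap between classes.

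Genes that carry RNA without either list were few and mostly short genes inside others. Of the 5575 genes with neither, 186 had a mean of at least 10 TPM, and 163 of these overlapped the body of another gene, 156 of them a gene with both. Examples are Mir3064, inside the helicase gene Ddx5, and Mir6983, inside Csf1r, whose counts cannot be told from those of their hosts without strand and at this overlap. Of genes with PU.1 alone 27 reached 10 TPM, among them the chromatin remodeller Srcap (77.7 ± 22.3 TPM) and Anapc5, a subunit of the anaphase-promoting complex (74.7 ± 10.99 TPM; SD, n = 5). Of genes with H3K4me2 alone 322 did, led among longer genes by Grina (374 ± 34.5 TPM), Leng8 (246 ± 53.7 TPM) and the ribosomal protein gene Rpl4 (243 ± 38.0 TPM). Leng8 did have a PU.1 peak within 1 kb of its start, which was assigned to another gene, so it is no example of a gene without PU.1 nearby.

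The genes of the PU.1 circuit themselves carried many peaks of both lists. Spi1 had 8 PU.1 peaks, all inside H3K4me2, and stood at 355, 270, 392, 250 and 333 TPM. Csf1r, whose product binds CSF1 and IL-34, had 9 PU.1 peaks, 8 of them inside H3K4me2, and 5707, 5433, 5885, 6238 and 6528 TPM. P2ry12, a purinergic receptor of resting microglia, had 12 with 5 outside, and 3250, 5609, 4371, 2540 and 2549 TPM. The libraries of Spi1 lay far below those of the receptors, and P2ry12 varied most among them. Sall1, a transcription factor of microglia, had 13 PU.1 peaks and 547, 755, 670, 786 and 792 TPM, and Runx1, a factor of blood and microglial development, had 47 PU.1 peaks, 32 of them outside H3K4me2, at 54.2, 80.7, 64.7, 61.7 and 73.7 TPM. More peaks thus did not mean a higher level between these genes.

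Most PU.1 peaks were found at long genes. Zfhx3, a zinc-finger homeobox factor of 682326 bp, had 80 (168, 202, 136, 207 and 226 TPM), followed by Elmo1, which acts in engulfment of dying cells, with 70, of which 50 lay outside H3K4me2 (164, 261, 201, 245 and 253 TPM), by Nav2 (70), Frmd4a (68) and the adhesion gene Sdk1 (66). The transcriptional repressor Bach2 had 64, Maml3 61, Asap1 57, and Etv6 and Hivep3 54 each. At the other end, PU.1 peaks also lay at genes with little RNA. Among genes under 1 TPM, Rad51b, a DNA repair gene, had 45 peaks, and Gas7, Tg and Ankrd55 had 28 each.

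Effector genes of microglia ranged from 1 to 19 PU.1 peaks, against a median of 2 over all genes. Il1b, the gene of a cytokine made by activated microglia, had 4 PU.1 peaks, 3 outside H3K4me2, PU.1 alone at its start and 1 region of 501 bp, the smallest width, and stood at 4.91, 5.95, 6.10, 8.85 and 4.53 TPM. Tnf, another such cytokine gene, had 4 PU.1 peaks, all inside an H3K4me2 region at its start, and 44.4, 11.4, 4.86, 158 and 74.3 TPM, with library 4 the highest and library 3 the lowest. Apoe, an apolipoprotein gene, had 1 peak of each list, and Trem2, a lipid-sensing receptor gene, had 2 of each. Fos, an immediate-early transcription factor gene, had 19 PU.1 peaks in and around a body of 3385 bp and 4631, 508, 21.6, 1931 and 1789 TPM, again lowest in library 3.

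Lists of genes by function were then described by their counts. All 25 homeostatic microglia genes, such as Mertk and Fcrls, had both PU.1 and H3K4me2, with a median of 7 PU.1 peaks a gene against 2 over all genes, and a median of 1888 TPM. So did all 27 macrophage transcription factor genes (median 11 PU.1 peaks, 105 TPM), all 20 integrins and phagocytic receptors (8.5 peaks, 190 TPM), all 21 lysosomal genes (7 peaks, 558 TPM) and all 23 immediate-early genes (6 peaks, 308 TPM). Of pattern recognition and inflammation genes 25 of 26 had both (5 peaks, 76.8 TPM), and of genes of general transcription and translation 27 of 28 (2 peaks, 42.9 TPM). Over all genes 63.2% had both. Either list was more common at genes with more RNA, whatever their function. Of genes of 10 to 100 TPM 93.1% had PU.1 and 97.1% H3K4me2, with a median of 3 PU.1 peaks. At 100 to 1000 TPM these were 97.2%, 98.8% and 6 peaks, and above 1000 TPM 98%, 98% and 7 peaks. The part of RNA level in the counts of these lists was not tested.

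Interferon-response genes and transcription factors of other lineages stood nearer the background. Of 21 interferon-response genes 14 had both, 5 H3K4me2 alone, 1 PU.1 alone and 1, Ifi44, neither, with a median of 2 PU.1 peaks and 5.04 TPM. Isg15, a ubiquitin-like modifier, had H3K4me2 alone and 5.04, 1.82, 5.01, 3.04 and 2.69 TPM. Of 26 transcription factor genes of other lineages 18 had both, 5 H3K4me2 alone, and the neural factor Sox1 and the muscle factors Myf5 and Myod1 neither, at a median of 0.00900 TPM. With only peaks inside a gene or within 1 kb of it 11 of the 26 had both, so for this list the count rests on how far a peak may lie. Olig2, an oligodendrocyte lineage factor, had 8 PU.1 peaks, 4 H3K4me2 regions and 0.0478 ± 0.0532 TPM (SD, n = 5).

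Marker genes of microglia and of other cell types were counted in the same way. Over all genes 63.2% had both. All 8 microglia markers had both. Of the neuron markers 8 of 10 had both, of the astrocyte markers 7 of 9, of the oligodendrocyte markers 7 of 8, of the endothelial markers 7 of 8, of the border macrophage markers 5 of 6, of monocyte and of B cell markers 4 of 6 each, of T and NK cell markers 4 of 8, of erythroid markers 2 of 6 and of neutrophil markers 1 of 8. The monocyte and B cell lists, at 66.7%, lay near the share over all genes. With only peaks inside a gene or within 1 kb of it, 5 neuron and 2 monocyte markers had both. Summed ex vivo levels were 41542 to 49459 CPM for the microglia markers, 2.48 to 18.5 CPM for neuron, 172 to 404 CPM for astrocyte, 88.1 to 223 CPM for oligodendrocyte, 3.37 to 184 CPM for neutrophil and 5.77 to 51.3 CPM for monocyte markers. They were 49.2 to 64.3 CPM for endothelial, 7.65 to 115.7 CPM for border macrophage and 8.92 to 21.6 CPM for B cell markers. For T and NK cell markers they were 0.450 to 2.1 CPM, and for erythroid markers 0.796 to 3.15 CPM. The astrocyte list includes Slc1a3, a glutamate transporter gene, which had 25 PU.1 peaks and 72.2, 103, 93.8, 67.6 and 78.2 TPM, while Gfap, the defining astrocyte gene, had no PU.1 peak and 0.0310, 0.230, 2.00, 0.158 and 0.157 TPM. Mbp, a myelin gene, had 20 PU.1 peaks, 13 outside H3K4me2, and 4.43, 12.2, 79.6, 20.6 and 4.30 TPM.

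Of the 8 neutrophil markers 5 had neither list near them. Of these S100a9, Ngp and Camp stood at 70.4 ± 85.0, 57.2 ± 65.5 and 17.4 ± 17.9 TPM (SD, n = 5). Ngp was at 5.69, 161, 79.6, 3.95 and 35.9 TPM, so libraries 2 and 3 carried most of it. The other two, Elane and Mpo, had almost no RNA, as given above. S100a8, with the most RNA of the list, had 2 PU.1 peaks, 1 H3K4me2 region and both lists at its start, at 8.05, 173, 195, 2.21 and 25.6 TPM, with libraries 2 and 3 again the highest, and Retnlg had 1 PU.1 peak at 5.41 ± 9.02 TPM (SD, n = 5). The part of other cells in the peak lists was not tested, since the RNA and ChIP libraries were separate samples.

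Sorted microglia were compared with brain lysate to ask whether the genes with these peaks were those higher in microglia. Of 15335 genes tested with edgeR's quasi-likelihood test at a Benjamini-Hochberg adjusted p of 0.05, 39.1% were higher ex vivo than in lysate and 43.5% lower. Of tested genes with both lists near them 42.5% were higher and 39.6% lower, of those with PU.1 alone 19.5% and 70.0%, of those with H3K4me2 alone 17.3% and 68.5%, and of those with neither 24.9% and 58.5%. With the number of PU.1 peaks the share higher rose from 19.9% at none, through 33.3% at 1 to 2, 42.3% at 3 to 5, 50.7% at 6 to 10 and 56.5% at 11 to 20, to 69.9% at 21 or more (253 of 362 tested; 74 lower). Low genes enter the test only where 1 of the groups holds enough counts, and 1970 of the 7477 genes without PU.1 were tested. With peaks inside the gene or within 1 kb only, 227 tested genes had 21 or more, and 153 of them (67.4%) were higher.

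Named genes show the size of the difference. Csf1r was at 12204, 11153, 13175, 12618 and 13533 CPM ex vivo and at 81.8, 83.4, 103 and 113 CPM in lysate, a log2 difference of 7.35 ± 0.19 (SE; edgeR adjusted p = 4.95e-11). Runx1 was at 209 to 287 CPM ex vivo and at 1.13 to 1.64 CPM in lysate (7.73 ± 0.21; edgeR adjusted p = 4.95e-11). In both, no ex vivo library overlapped one of lysate. Mef2c, a factor that neurons express as well, had 22 PU.1 peaks but was at 600 CPM ex vivo and 720 CPM in lysate on average, and was not called (log2 0.04 ± 0.18; edgeR adjusted p = 0.83). Over all genes tested 39.1% were higher ex vivo and 43.5% lower. Of the lists, 25 of 25 homeostatic, 22 of 26 tested macrophage transcription factor and 18 of 20 integrin and phagocytic genes were higher. So were 23 of 25 pattern recognition, 19 of 21 lysosomal, 16 of 23 immediate-early and 15 of 20 interferon-response genes. Among general transcription and translation genes 8 of 28 were higher, and among transcription factors of other lineages 1 of 10. Lower were 2 macrophage transcription factor genes, 1 integrin or phagocytic gene, 1 pattern recognition, 2 lysosomal, 4 immediate-early, 6 general and 9 other-lineage factor genes, and no homeostatic or interferon-response gene.

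After 7 d in culture genes with many ex vivo PU.1 peaks were more often lower. This comparison shares the ex vivo libraries with the one against lysate, so the 2 are not independent. Of 13840 genes tested 34.8% were higher at 7 d and 35.7% lower. Of genes with 21 or more PU.1 peaks 81 of 364 (22.3%) were higher and 216 (59.3%) lower, with a median log2 difference of -0.70. At 11 to 20 peaks 30.9% were higher and 45.6% lower, at 6 to 10 33.7% and 38.7%, at 3 to 5 36.9% and 34.4%, at 1 to 2 37.6% and 31.1%, and at none 27.8% and 36.3%. From 1 to 10 peaks the shares therefore lay within 5 percentage points of those of all genes. The median gene length also rose over these classes, and its part in the difference was not tested.

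**Figure D5:**
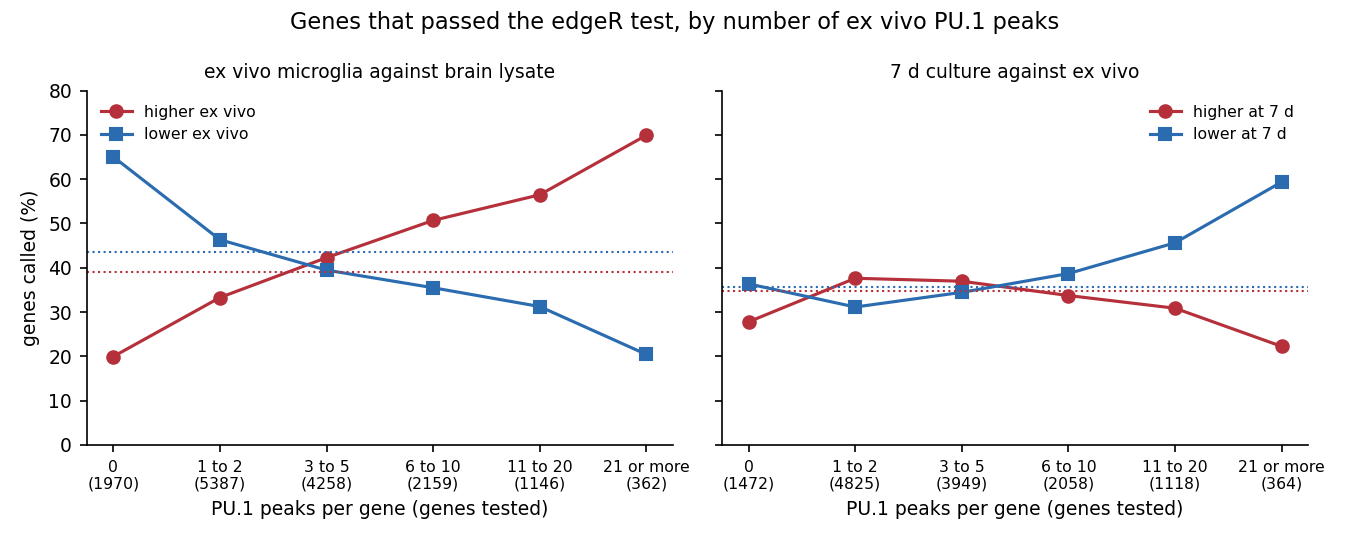
Percent of tested genes called by edgeR as higher (circles) or lower (squares), by number of ex vivo PU.1 peaks per gene, ex vivo against lysate (left) and 7 d culture against ex vivo (right); dotted lines are the shares over all genes tested, and genes tested stand under each class. At 21 or more peaks 69.9% were higher ex vivo than in lysate and 59.3% were lower at 7 d, both above the shares over all genes.

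Among named genes with many peaks, Zfhx3 was at 1302 to 1998 CPM ex vivo and at 179 to 421 CPM at 7 d (log2 -2.35 ± 0.25; edgeR adjusted p = 3.20e-07), and Sall1 at 1595 to 2239 and 85.8 to 170 CPM (-3.79 ± 0.25). Neither had libraries that overlapped between the groups. Runx1, with 209 to 287 CPM ex vivo and 192 to 333 CPM at 7 d, overlapped and was not called (0.15 ± 0.17; edgeR adjusted p = 0.421). Ctsb, the lysosomal protease cathepsin B, with 12 PU.1 peaks, went the other way, from 2220 to 2517 CPM ex vivo to 20713 to 27122 CPM at 7 d (3.41 ± 0.14; edgeR adjusted p = 2.81e-12). Over all genes tested 34.8% were higher at 7 d and 35.7% lower. Of the lists, 23 of 25 homeostatic and 18 of 23 immediate-early genes were lower at 7 d. Higher were 15 of 21 lysosomal, 19 of 21 interferon-response and 23 of 28 general transcription and translation genes. Of macrophage transcription factors 8 of 27 were higher and 9 lower, near the shares over all genes. Of integrins and phagocytic receptors 11 of 20 were higher and 4 lower. Of pattern recognition genes 4 of 26 were higher and 12 lower. For the immediate-early genes the ex vivo libraries themselves ran from 1753 to 46691 CPM in sum.

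Some genes with many ex vivo PU.1 peaks and little ex vivo RNA were higher at 7 d. Gas7 was at 1.64, 4.51, 6.26, 3.07 and 2.58 CPM ex vivo and at 52.6, 33.4, 30.5, 46.2 and 36.4 CPM at 7 d (log2 3.55 ± 0.33; edgeR adjusted p = 1.22e-07), with no overlap, and Ankrd55 was at 0 to 0.225 CPM ex vivo and at 1.07 to 3.33 CPM at 7 d. Of the other such genes named above, Rad51b (log2 0.78; edgeR adjusted p = 0.176) and Tg (log2 -1.15; edgeR adjusted p = 0.122) were not called at 7 d. Whether a rise holds over the genes under 1 TPM ex vivo as a group cannot be decided from the test. Such low genes enter it only where 1 of the groups holds enough counts. The test at 7 d took in 388 of 6217 such genes with no PU.1 peak (6.24%), 798 of 3656 with 1 to 2 (21.8%), 568 of 1751 with 3 to 5 (32.4%), 256 of 670 with 6 to 10 (38.2%) and 50.0% of the 256 with 11 or more. Of those tested, 32.7%, 33.0%, 37.7%, 34.0% and 33.6% were higher at 7 d, near the 34.8% over all genes tested, and 26.5%, 26.7%, 26.9%, 33.2% and 39.1% were lower.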

How the data were processed

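Peak intervals of PU.1 and H3K4me2 in ex vivo mouse microglia were analysed with RNA of 5 ex vivo, 4 lysate and 5 cultured (7 d) libraries. Further cultured libraries entered only the model for 7 d, as given below. Peaks were called with HOMER findPeaks, per the file headers, from the pooled tags of each factor against a pooled input, with at least 4-fold over input and over the local 10 kb, in its transcription factor mode for PU.1 and its histone mode for H3K4me2. Per the same headers the local filter removed 18930 putative PU.1 peaks and 0 putative H3K4me2 peaks. Coordinates are on mm10. The deposited lists hold positions and no score, and the tag numbers and thresholds are per the file headers. The deposited counts are whole-number read counts per gene symbol, and the TPM values, also deposited by the authors, come from a table called trimmed; the sources used here do not say what was trimmed, and the ex vivo columns sum to 608058 to 632002. Bowtie2, STAR, bedtools, HOMER, R 3.3.1 and limma are named in the submitters' processing notes, with the part of each not given in the sources used here.

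Intervals were called overlapping where they shared at least 1 bp (bedtools 2.31.1), and shares carry Wilson intervals of 95%. Peaks were given to the gene body that holds them or the nearest within 100 kb, ties to all. Of 24537 symbols, 24408 matched a RefSeq GRCm38.p6 gene body (734 by synonym). Starts with strand and promoter windows (250 bases before to 50 after) came from RefSeq GRCm38.p6 for 17601 genes, none of them on chromosome 18. A gene was called detected at a mean of 1 CPM, which like all CPM here is counts over the library total. Differences in RNA came from edgeR 4.0.16 under R 4.3.3 (filterByExpr, TMM, robust quasi-likelihood F test, Benjamini-Hochberg adjustment, threshold 0.05), on 9 libraries against lysate and in 1 model of the 17 microglial libraries for 7 d; standard errors are the log2 difference over the square root of F. Besides the ex vivo and 7 d groups, the 17 libraries were of shorter cultures and of 7 d culture labelled TGFβ. All 17 thus bear on the dispersion behind the p-values for 7 d. DESeq2 1.42.0 was an alternative. Python 3.11.15 with numpy 2.4.6, pandas 2.3.3, scipy 1.17.1 and matplotlib 3.10.9 was used, and the overlap script was tested on simulated data. No test was run across peaks or genes.

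Named genes are 21 fixed genes, the 10 with most PU.1 peaks, the 5 with most outside H3K4me2, with most H3K4me2 regions and nearest the widest ones, the 5 of highest TPM in each class lacking a list, the 5 under 1 TPM with most PU.1 peaks, and of each list up to 4 members with most PU.1 peaks and members with neither. Genes printed for their octamer, and Isg15, were chosen after their values were seen, and some genes the rule gives are not reported here. The members, 9 gene lists and 11 marker lists were chosen with earlier results of these data known. The input libraries were used only through the authors' peak calling.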

Additional observations from a re-analysis of the deposited data

Results flagged for a closer look

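In 66 groups of ex vivo, lysate and 7 d values of fixed genes and of class medians, 8 had a highest or lowest library set apart from the rest by Dixon's criterion, where chance gives about 1 in 20, or 3.3 groups. Among the ex vivo TPM values replicate 3 stood apart for 3 genes: Trem2 at 1640 TPM (nearest 1085), Mbp at 79.6 TPM (nearest 20.6) and Gfap at 2.00 TPM (nearest 0.230). In lysate, replicate 4 stood highest for Mef2c at 906.7 CPM (nearest 675.8) and Il1b at 0.304 CPM (nearest 0.105), replicate 3 highest for Gfap at 216 CPM (nearest 127), and replicate 2 lowest for Runx1 at 1.13 CPM (nearest 1.60). After 7 d, Snap25 was at 0.0384 CPM in replicate 3 and at 0 in all others, so the criterion was met at the floor. Il1b in lysate was near the floor too. The rate of 1 in 20 does not cover such values. Ex vivo replicate 3 also had the highest class median of genes with H3K4me2 alone (0.206 TPM against 0.0625 to 0.108 TPM in the other 4), and leaving it out moved no class median by more than the spread between libraries.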

How the results depend on the processing

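Depth, the caller's thresholds and the absence of replicate lists limit every share of peaks, and intervals of shares cover counting error only. With 50% of the PU.1 peak inside the region, within 500 bp, or with regions of at least 1 kb, 43.3%, 50.5% and 36.2% of PU.1 peaks had H3K4me2, and 58.7%, 66.4% and 75.2% of regions had PU.1. With 500 bp as the limit, 24.3% of PU.1 peaks with and 3.22% of those without H3K4me2 were near a gene end, and 34.0% of regions with and 23.6% of those without PU.1; with 2.5 kb these were 40.7%, 12.2%, 40.6% and 32.5%. With 50% of the smaller interval shared, ATAC overlapped 68.4% of PU.1 peaks with and 45.4% of those without H3K4me2, and 87.0% and 40.9% of regions with and without PU.1, and H3K27ac overlapped 67.7%, 16.9% and, for regions without PU.1, 26.8%. The order of the groups was the same in each of these.

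The median TPM of genes with both was 9.68 with peaks assigned within 20 kb and 11.5 with peaks inside the gene or within 1 kb, where that of PU.1 alone was 0.0116. Over genes of at least 1 TPM the medians were 20.6 (both), 3.58 (PU.1 alone), 9.24 (H3K4me2 alone) and 5.54 (neither). As means of log2(TPM + 1) turned back to TPM they were 7.21, 0.186, 1.43 and 0.251, and with 0.1 in place of 1 they were 4.13, 0.0612, 0.533 and 0.0645. With no filter on low counts 103 genes with PU.1 alone and 336 with neither were higher ex vivo than in lysate and 414 and 804 lower (65, 171, 233 and 402 with the filter). With peaks inside the gene or within 1 kb the classes hold fewer genes: against lysate 364 genes of 11 to 20 PU.1 peaks and 153 of 21 or more were higher, and 473 of 6 to 10, 224 of 11 to 20 and 49 of 21 or more were lower; at 7 d 419, 183 and 47 of these 3 classes were higher and 310 of 11 to 20 and 131 of 21 or more lower. With such peaks 11 factors of other lineages, 5 neuron markers and 2 monocyte markers had both, and with 500 bp as the limit 11.9% of starts with PU.1 alone held the octamer.

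Same-numbered libraries did not deviate together (r from -0.11 to 0.24), so their numbers were not taken as pairs. With a replicate block 51 genes with PU.1 alone and 152 with neither were lower at 7 d (116 and 248 without it). Among the fixed genes, Mbp was no longer called at 7 d with the block (log2 -0.94) or without ex vivo replicate 3 (-0.57), and Trem2 was called with the block (0.39), without ex vivo replicate 3 (0.54), and without 7 d replicate 1 (0.49) or 4 (0.49), but not with all libraries (0.41). In all, 674 other recalculated class, list and share values stayed within the limits set for them, the sets that leave out 1 library in turn among them: genes with 21 or more PU.1 peaks that were higher than in lysate numbered 237 to 251, and those lower at 7 d 210 to 221. The limit was the Wilson interval for a share and 1 SD of the library medians for a median. For a count it was a fixed fold of the main value, so counts within it could still differ clearly. No fixed gene changed sign between the main run and an alternative where either of them called it. Changes of sign where neither called the gene were not looked for, nor was the order of the class values. The cause of the shifts that no construction explains was not tested.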

Other observations

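The X chromosome differed from the autosomes in how the lists met. On it 56.0% of PU.1 peaks overlapped H3K4me2, against 40.4 to 50.8% on the autosomes, and 57.8% of H3K4me2 regions held PU.1, against 59.9 to 65.0%. It had 5.04 PU.1 peaks per detected gene, below the lowest autosome (5.18, chromosome 7), while H3K4me2 regions per detected gene (3.68) lay inside the autosomal range. These are values of 1 pooled list each, and no test was run on them.

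Some endothelial marker genes were among the genes with many PU.1 peaks and little ex vivo RNA. Over the 8 markers of the list the number ranged from 0 to 18, with a median of 8.5, and those named here had the most. Flt1 and Kdr, receptors for vascular endothelial growth factor, had 18 each and Vwf, which encodes von Willebrand factor, 16. Flt1 was at 0.842, 1.33, 1.60, 0.450 and 1.49 CPM ex vivo and at 13.5, 32.2, 35.4, 9.75 and 27.1 CPM after 7 d (log2 4.40; edgeR adjusted p = 5.60e-07), and Vwf at 1.26, 1.19, 1.51, 2.62 and 3.61 CPM and 50.6, 28.5, 28.5, 43.9 and 54.1 CPM (log2 4.42; edgeR adjusted p = 5.27e-09). For both genes every 7 d library lay above every ex vivo library. Kdr, at 3.56 ± 0.815 TPM ex vivo (SD, n = 5), went the other way and was lower at 7 d (log2 -1.26; edgeR adjusted p = 6.53e-05). Pecam1, an adhesion molecule of endothelium and leukocytes, had 13 PU.1 peaks and 22.5 ± 2.26 TPM ex vivo (SD, n = 5), and was lower at 7 d (log2 -3.99; edgeR adjusted p = 7.85e-11). Of the 5 endothelial markers tested at 7 d, 2 were higher and 3 lower.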
